A study of Mus musculus with 6 samples.

Results

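The transcripts of 10 genes of the NF-kappaB pathway were followed across the cell types of the injured mouse rotator cuff enthesis, the site where tendon inserts into bone. They comprise the Rel-family subunits Nfkb1, Nfkb2, Rela and Relb, the IkappaB-family genes Nfkbia and Nfkbiz, and 4 genes whose products limit or relay the signal, Tnfaip3, Birc3, Zc3h12a and Irak3. The genes were chosen by symbol, and all 10 were found among the 32285 genes listed for each library.

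NF-kappaB transcription factors are dimers of Rel-family proteins that IkappaB proteins hold in the cytoplasm of resting cells. Signals from TNF, interleukin-1 or Toll-like receptors activate the IkappaB kinase complex, IkappaB is degraded, and the released dimers enter the nucleus and induce inflammatory genes. Among the induced genes are inhibitors of the pathway itself, including Nfkbia and Tnfaip3, so that their transcripts are commonly read as a trace of recent signalling. A transcript level measures neither nuclear dimers nor their binding to DNA.

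Single-cell RNA was measured with droplet-based 3′ chemistry at 7 days post injury and repair (dpi), in 6 libraries, of which 3 were wild type and 3 Nlrp3-/-. Both groups were adult mice that had undergone the same surgical tear and repair, the wild-type controls being C57BL/6 mice and the Nlrp3-/- mice lacking the sensor protein of the NLRP3 inflammasome in all cells. Entheses were pooled, and the number and sex of the animals behind each library are not given in the labels, so p-values measure the spread between libraries, which may be technical. The genotype label of Nlrp3-/- replicates 2 and 3 names Nlrp4 and Nlrp5, while their titles name Nlrp3, and the groups follow the titles.

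After filtering, 81011 cells were kept, from 9346 to 21124 per library. Before filtering, each library held 97042713 to 134901999 unique molecular identifiers (UMIs) over all barcodes, of which 73.4% to 80.1% lay in the kept cells. Nlrp3 had from 7887 to 16085 UMIs in the wild-type libraries and 0 in each Nlrp3-/- library. Xist stood at 783 to 925 CPM (UMIs scaled to the same total in every library) in Nlrp3-/- libraries and at no more than 0.103 CPM in wild-type libraries, while 4 Y-linked genes summed to 70.5 to 127 CPM in wild-type libraries, so genotype and the sex of the animals cannot be told apart. Nlrp3-/- replicate 1 stood apart: its median was 1747 UMIs per cell against 3828 to 6677 in the other libraries, and 9809 of its cells, which formed clusters with few cells of any other library, were set aside before any comparison. Any pair of libraries shared from 26 to 94 cell barcodes, at most 0.626% of the smaller library. Cell types are named by resemblance to marker genes and stand for macrophage-like cells, neutrophil-like cells and so on. The 10 genes and the related pathway genes were left out when cells were clustered.

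Promoter sequence was examined because 3 of the 10 genes carry, within 250 bases upstream of a RefSeq transcription start, letters that match a kappaB motif, the DNA element bound by NF-kappaB dimers. RefSeq (GRCm38.p6) gave 11 such windows for 7 of the 10 genes and none for Nfkb1, Relb and Nfkbiz. On either strand, GGG followed by any 2 bases and TTTCC was found in 1.41%, and GGG followed by any 2 bases and TTCCC in 1.53%, of 32851 mouse windows of the same length, and either of them in 2.82%. Among the 11 windows, 4 held a match, in Nfkb2, Nfkbia and Tnfaip3. The window with the match nearest a start is printed for each of these 3 genes, 5′ to 3′ with the matches in capitals. The windows of Rela, Birc3, Zc3h12a and Irak3 held none.
Nfkb2, chr19:46304487-46304736, plus strand: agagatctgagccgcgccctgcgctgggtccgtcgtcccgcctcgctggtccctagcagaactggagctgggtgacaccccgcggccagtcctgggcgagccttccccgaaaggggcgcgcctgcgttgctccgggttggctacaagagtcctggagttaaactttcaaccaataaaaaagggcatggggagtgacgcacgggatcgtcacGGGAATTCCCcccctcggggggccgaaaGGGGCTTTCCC
Nfkbia, chr12:55492648-55492897, minus strand: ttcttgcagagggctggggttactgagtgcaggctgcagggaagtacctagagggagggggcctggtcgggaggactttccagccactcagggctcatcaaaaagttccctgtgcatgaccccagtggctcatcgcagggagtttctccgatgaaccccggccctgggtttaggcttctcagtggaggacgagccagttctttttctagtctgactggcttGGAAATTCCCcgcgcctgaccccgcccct
Tnfaip3, chr10:19015411-19015660, minus strand: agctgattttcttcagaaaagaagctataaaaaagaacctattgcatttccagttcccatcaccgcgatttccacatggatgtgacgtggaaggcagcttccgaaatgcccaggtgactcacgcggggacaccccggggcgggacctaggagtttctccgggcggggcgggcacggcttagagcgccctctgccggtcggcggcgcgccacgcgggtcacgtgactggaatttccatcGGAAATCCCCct
In the Nfkb2 window the matches lie 39, 11 and 10 bases before the start, and the latter pair overlaps. The match lies 29 bases before the start in Nfkbia and 12 bases before the start in Tnfaip3, both on the strand opposite to the gene. A match describes letters in the window and is not evidence of a bound site.

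The first comparison asked in which cells of the healing enthesis these genes were expressed. UMIs were summed per library and cell type and scaled to CPM, and 9 cell types were ordered by their mean over the 3 wild-type libraries. In that order, T and NK cells, conventional dendritic cells and neutrophils held the highest mean of all 10 genes between them, and mesenchymal cells, the collagen-producing cells of the tendon and its surroundings, held the lowest mean of Nfkb1, Nfkbia, Tnfaip3 and Birc3. Most neighbours in the order could not be separated, because the ranges of their 3 libraries overlapped. Since 3′ chemistry counts molecules and not reads along a transcript, CPM was not divided by transcript length, and no order between genes is read from it. CPM is scaled to library totals, and neutrophil levels here and in the following paragraphs depend on that choice of scaling, examined below.

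**Figure D1:**
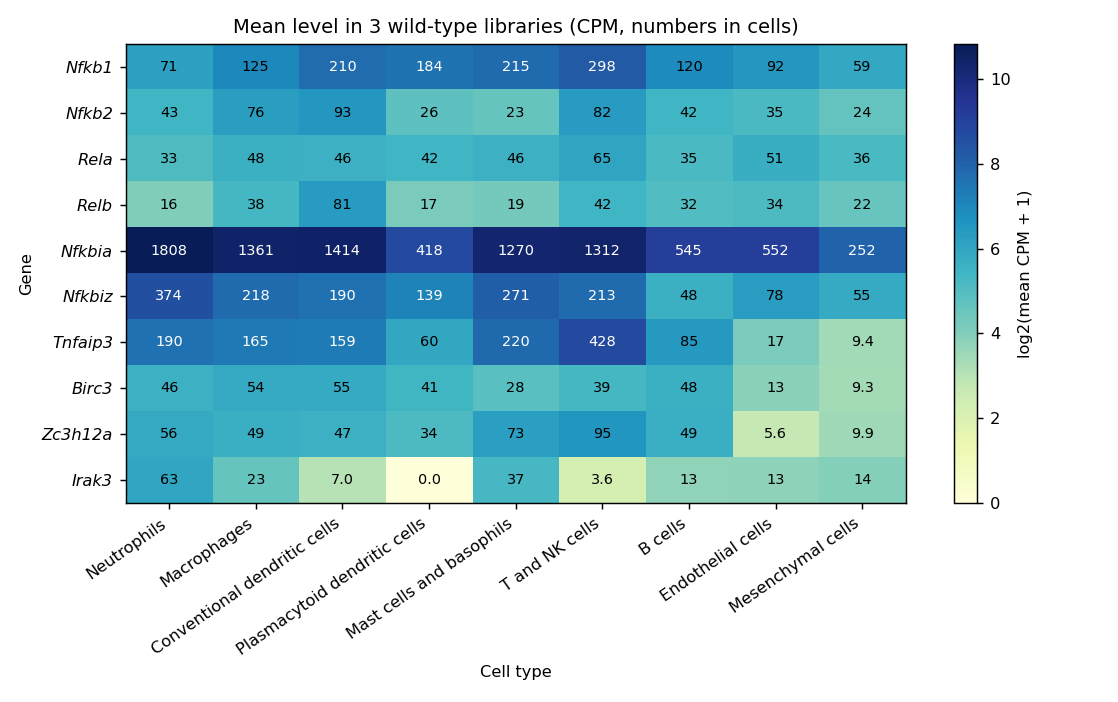
Mean level of the 10 genes in 9 cell types of the 3 wild-type libraries, with genes in rows, cell types in columns, the mean in CPM printed in each cell and the colour giving log2(mean CPM + 1). Tnfaip3 spans from 9.43 CPM in mesenchymal cells to 428.5 CPM in T and NK cells, while Rela spans from 33.3 to 64.7 CPM. Levels are scaled to library totals, on which the neutrophil column depends.

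The subunits differed in how widely they ranged. Nfkb1 (chromosome 3, 135584655 to 135691547, minus strand in GRCm38, as for the positions below) encodes the precursor of a DNA-binding subunit that lacks an activation domain. Its mean level was 298.5 ± 51.7 CPM (SD, n = 3) in T and NK cells and 59.4 ± 9.54 CPM in mesenchymal cells, a ratio of 5.02, and the step from plasmacytoid dendritic cells at 184 CPM to macrophages at 125 CPM was the only one of 8 neighbouring steps without overlap. Rela (chromosome 19, 5637483 to 5648130, plus strand) encodes the main activating subunit of the canonical pathway. It spread least, from 33.3 ± 5.12 CPM in neutrophils to 64.7 ± 9.02 CPM in T and NK cells, a ratio of 1.94, and all 8 neighbours overlapped. Its low place in neutrophils depends on the scaling, as set out below.

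The subunits of the alternative pathway, which is driven by receptors such as CD40 and the lymphotoxin beta receptor, were highest in conventional dendritic cells. Relb (chromosome 7, 19606217 to 19629438, minus strand) stood at 79.7, 93.3 and 69.4 CPM in the dendritic cells of wild-type replicates 1, 2 and 3, with a mean of 80.8 CPM. No wild-type library of T and NK cells, next in order at a mean of 42.2 CPM, reached these values. Nfkb2 (chromosome 19, 46304320 to 46312385, plus strand), the precursor of the DNA-binding partner of RelB, stood at 92.5 ± 12.3 CPM (SD, n = 3) in conventional dendritic cells, at 81.9 ± 15.3 CPM in T and NK cells and at 76.1 ± 9.82 CPM in macrophages. These 3 types overlapped, and neutrophils followed without overlap at 42.8 CPM.

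Nfkbia (chromosome 12, 55489410 to 55492647, minus strand) encodes IkappaB alpha, which binds canonical dimers and is resynthesised after each round of signalling. In neutrophils it stood at 918.5, 3032 and 1475 CPM in the 3 wild-type libraries, a wide spread within the cell type that had its highest mean, 1808 CPM. Conventional dendritic cells, macrophages, T and NK cells and mast cells and basophils followed with overlapping ranges at means of 1414 to 1270 CPM, and the step down to endothelial cells at 552 CPM was free of overlap. Nfkbiz (chromosome 16, 55811375 to 55838899, minus strand) encodes IkappaB zeta, a nuclear member of the family that acts as a co-activator at secondary response genes. It was highest in neutrophils at 374 ± 179 CPM (SD, n = 3) and lowest in B cells at 48.1 ± 4.17 CPM, a ratio of 7.77.

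Tnfaip3 (chromosome 10, 19000910 to 19015657, minus strand) encodes A20, an enzyme that edits ubiquitin chains and ends signalling to the IkappaB kinase complex. It stood at 346, 435.5 and 504 CPM in T and NK cells and at 6.98, 13.03 and 8.29 CPM in mesenchymal cells of the wild-type libraries. The ratio of the means was 45.4, the largest of the 9 genes with a UMI in every cell type, and T and NK cells lay above every other type without overlap. Zc3h12a (chromosome 4, 125118423 to 125127840, minus strand) encodes Regnase-1, a nuclease that degrades inflammatory transcripts. It stood at 95.1 ± 30.1 CPM (SD, n = 3) in T and NK cells and at 5.58 ± 0.601 CPM in endothelial cells, a ratio of 17.0.

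Birc3 (chromosome 9, 7848699 to 7873186, minus strand), which encodes a ubiquitin ligase that relays TNF receptor signals and restrains the alternative pathway, stood between 28.1 and 55.2 CPM in 7 blood-derived types with overlapping ranges. It was at 13.2 CPM in endothelial cells and at 9.26 CPM in mesenchymal cells, below all of these and without overlap. Irak3 (chromosome 10, 120141648 to 120202130, minus strand) encodes IRAK-M, a kinase-like protein that dampens Toll-like and interleukin-1 receptor signalling. It stood at 46.4, 60.7 and 82.0 CPM in the neutrophils of the 3 wild-type libraries, above mast cells and basophils at 37.2 CPM and macrophages at 23.1 CPM, each step without overlap. Irak3 was at 3.61 CPM in T and NK cells, and it had 0 UMIs of 1015804 in plasmacytoid dendritic cells, which allows up to 2.95 CPM at 3 counts.

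Low levels were read against the free RNA of the suspensions, measured in barcodes of at most 100 UMIs. Free RNA held Tnfaip3 at 52.3 to 148 CPM, Zc3h12a at 21.3 to 43.9 CPM, Birc3 at 23.2 to 43.9 CPM and Irak3 at 15.9 to 26.5 CPM. In mesenchymal cells all 10 genes lay below the free RNA of their own library in all 6 libraries, Nfkbia for example at 178 to 355 CPM in the wild-type libraries against 365 to 859 CPM in free RNA over the 6 libraries. In the wild-type libraries the same held in every library for 6 genes in endothelial cells (Tnfaip3, Zc3h12a, Birc3, Nfkb2, Nfkbiz and Irak3), for 7 in plasmacytoid dendritic cells (all but Nfkb1, Rela and Birc3), for 4 in B cells (Nfkbia, Nfkbiz, Rela and Irak3), for Irak3 in conventional dendritic cells and in T and NK cells, and for Nfkb2 in mast cells and basophils. In neutrophils it held for Nfkb1 at 51.2 to 91.7 CPM against 72.4 to 120 CPM in the free RNA of the same libraries, for Rela at 27.6 to 37.6 CPM against 39.9 to 51.9 CPM, and for Relb at 8.77 to 20.2 CPM against 23.35 to 30.9 CPM. In macrophages it held for none of the 10 genes, although Rela lay below free RNA in 2 of the 3 wild-type libraries. Levels below free RNA are not read as expression, nor as its absence, because the share of free RNA in each cell was not estimated. Folds against such a level describe the difference between the measured values and are not bounds.

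Across the 9 types, the members went together to different degrees. Pearson's r of the log levels was highest, at 0.95, between Tnfaip3 and Zc3h12a, followed by 0.86 between Nfkbia and Tnfaip3 and 0.84 between Nfkbia and Nfkbiz. It was lowest, at -0.51, between Nfkb1 and Irak3, and Rela with Birc3 stood at 0.02. These values describe 9 points that share the same 3 libraries, and the levels below free RNA listed above are among the points. Of 8981 genes with a level of at least 20 CPM in some type, the one whose pattern was most like that of Tnfaip3 was Junb, an immediate early transcription factor, at r = 0.98. Rgs2 followed at r = 0.98. The genes most like Nfkbia were Cd274, which encodes the checkpoint ligand PD-L1, at r = 0.96 and the signalling adaptor Lcp2 at r = 0.95. Crem and Mir155hg were most like Nfkb1 at 0.98 and 0.95. For Nfkb2, Rela, Relb, Nfkbiz, Birc3 and Zc3h12a the highest r ran from 0.91 (Psen2 with Rela) to 0.98 (Kcnab2 with Zc3h12a). Each such r is picked as the highest of 8981 values over 9 points and was not tested. Junb is also among the genes that respond to tissue dissociation, whose part in these patterns was not tested.

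Pairs of cell types were then tested within the wild-type libraries with edgeR, with the library as a block. The innate cells were set against the mesenchymal cells that they infiltrate. Macrophages exceeded mesenchymal cells for all 10 genes, where 30.7% of the 13241 genes tested were called higher, and the median log2 difference was 1.81 over the 10 genes and -0.13 over all genes. The difference was 4.07 ± 0.37 (log2, SE; edgeR adjusted p = 3.52e-10) for Tnfaip3, 2.53 ± 0.23 for Birc3, 2.49 ± 0.27 for Nfkbia and 2.39 ± 0.18 for Zc3h12a. It was smallest for Rela at 0.40 ± 0.15 (edgeR adjusted p = 0.0216), which no longer passed without wild-type replicate 1 (0.43, edgeR adjusted p = 0.0969). With doublets kept, neither Rela (0.28, edgeR adjusted p = 0.0741) nor Irak3 (0.41, edgeR adjusted p = 0.0927) passed. In the Nlrp3-/- libraries all 10 genes were again higher in macrophages, against 33.0% of genes.

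Neutrophils exceeded mesenchymal cells for 9 of the 10 genes, where 37.1% of genes were called higher. Tnfaip3 differed by 5.26 ± 0.39 (log2, SE), Nfkbia by 3.81 ± 0.29, Nfkbiz by 3.75 ± 0.34 and Zc3h12a by 3.53 ± 0.19. Relb, at 0.44 ± 0.21 with an interval, computed from the SE, of 0.03 to 0.85, missed the threshold (edgeR adjusted p = 0.0571). When wild-type replicate 1 was left out Relb was higher in neutrophils (0.70, edgeR adjusted p = 0.0144). Relb lay below free RNA in both cell types, as did Nfkb1 and Rela. The Nlrp3-/- libraries also gave 9 of 10, against 35.6% of genes, with Relb again the exception at 0.26 (edgeR adjusted p = 0.504).

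Values that involve neutrophils depend on how libraries are scaled. The 10 most abundant genes took 38.7% to 46.2% of all UMIs in neutrophils and 10.48% to 12.5% in macrophages. The trimmed mean of M values (TMM) set neutrophil libraries to factors of 0.480 to 0.544, against 0.977 to 1.08 for macrophages. The part of the abundant genes in these factors was not tested. With totals alone, the median of all genes moved by -0.98 (log2) for neutrophils against macrophages and by -1.0 for neutrophils against mesenchymal cells. Against mesenchymal cells, totals alone left 7 of the 10 genes higher, against 21.0% of genes, and put Relb lower at -0.56 (edgeR adjusted p = 0.0174), as were 63.4% of genes.

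Neutrophils and macrophages, both of them responders to tissue damage, were compared with each other. In macrophages of wild-type replicates 1, 2 and 3, Nfkbiz stood at 159, 151.5 and 341.5 CPM, and in neutrophils at 211, 565 and 345 CPM. Irak3 stood at 18.8, 20.4 and 30.2 CPM in macrophages, below each of the neutrophil values given above, and no other member was free of overlap with a higher level in neutrophils. After TMM scaling, 7 of the 10 genes were higher in neutrophils, where 36.1% of genes were called higher, and none was lower. They were Irak3 (log2 difference 2.44 ± 0.19, SE; edgeR adjusted p = 3.57e-11), Nfkbiz (1.82 ± 0.32), Nfkbia (1.33 ± 0.26), Tnfaip3 (1.19 ± 0.33), Zc3h12a (1.14 ± 0.18), Birc3 (0.75 ± 0.22) and Rela (0.47 ± 0.15). Nfkb1 differed by 0.17 with an interval of -0.20 to 0.53, Nfkb2 by 0.16 with an interval of -0.26 to 0.58 and Relb by -0.34 with an interval of -0.75 to 0.07. The neutrophil levels of Nfkb1, Rela and Relb lay below free RNA in every wild-type library.

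With totals alone only Irak3 (1.44) and Nfkbiz (0.81) remained higher, against 15.0% of genes. All 4 subunits were then lower in neutrophils, by -0.84 for Nfkb1 and Nfkb2, -0.53 for Rela and -1.34 for Relb, as were 59.0% of genes. The sign of the differences of Nfkb1, Nfkb2, Rela and Birc3 depended on the scaling. The calls also rested in part on wild-type replicate 2, which had the highest neutrophil level of Nfkbia, Nfkbiz, Tnfaip3, Birc3 and Zc3h12a. Without it, 4 genes were higher (Irak3, Nfkbiz, Zc3h12a and Nfkbia), against 30.9% of genes, and Relb was lower at -0.66. Without wild-type replicate 3, Rela did not pass either (0.34, edgeR adjusted p = 0.0826), and Relb was lower at -0.60. In the Nlrp3-/- libraries 3 genes were higher, Irak3 (2.39), Nfkbiz (1.14) and Zc3h12a (0.92), against 30.6% of genes. Nfkbia, at 0.81 with an interval of 0.10 to 1.52, missed the threshold there (edgeR adjusted p = 0.0517).

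**Figure D2:**
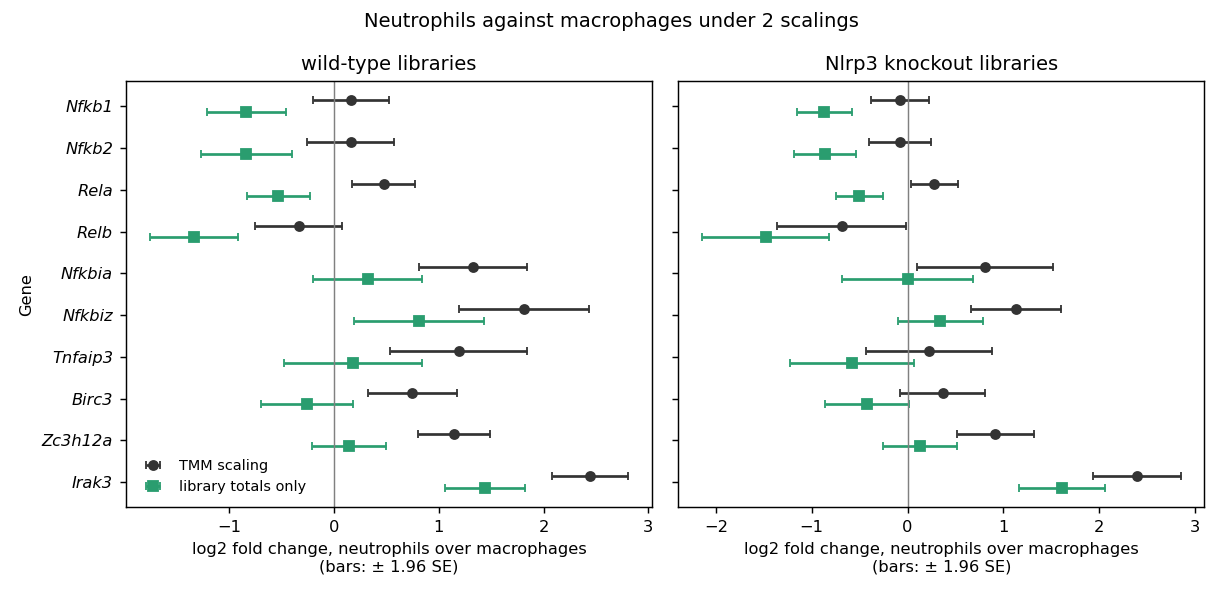
Difference of the 10 genes between neutrophils and macrophages in wild-type (left) and Nlrp3-/- libraries (right), on a log2 axis, with bars for the interval computed from the SE, after TMM scaling (circles) and with library totals alone (squares). Irak3 lies above 0 in each of the 4 fits, at 2.44 and 1.44 in wild-type libraries, while Nfkb1, Nfkb2 and Rela lie above 0 with TMM and below 0 with totals alone in the wild-type libraries.

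Conventional dendritic cells differed from macrophages in few of these genes. Nfkb1 was higher by 0.86 ± 0.19 (log2, SE; edgeR adjusted p = 0.00115) and Relb by 1.21 ± 0.22, so that 2 of 10 genes were higher, where 13.3% of genes were. Irak3 was lower by -1.54 ± 0.28, the only member among the 13.4% of genes called lower. The Nlrp3-/- libraries placed 4 genes higher, against 12.5% of genes, namely Relb (1.54), Nfkb1 (1.12), Zc3h12a (0.84) and Nfkb2 (0.66), and Irak3 lower at -1.29, against 12.9% of genes. Irak3 lay below free RNA in all 6 libraries of conventional dendritic cells and in 1 wild-type library of macrophages. Its level in the dendritic cells is not read as expression.

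Endothelial cells, which line vessels, were set against mesenchymal cells as the other resident type. Nfkbia was higher by 0.96 ± 0.26 (log2, SE; edgeR adjusted p = 0.00299), 1 of 10 genes where 23.2% of genes were higher, and Zc3h12a was lower by -1.02 ± 0.25, where 29.4% were lower. With totals alone 5 genes were higher, against 32.4% of genes, and the median of all genes moved by 0.22. In the Nlrp3-/- libraries 4 genes were higher, against 23.2% of genes, including Nfkb1 (0.86) and Nfkbia (0.92), and none was lower, against 26.7%. Nfkbia lay below free RNA in 5 of the 6 endothelial libraries, 2 of them wild type, and in all 6 mesenchymal libraries. Zc3h12a lay below free RNA in all 6 libraries of both types, so its difference is not read as one of expression.

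Within neutrophils, the measured levels of most of the 10 genes differed between mature cells and dividing precursors. Most of the precursor levels lay below free RNA, as set out below. Mature neutrophils, named from genes such as Cxcr2, Csf3r and Mmp8, were compared with dividing neutrophil precursors, named from Mki67, Mpo and Elane, a comparison added after the data had been seen. Nfkbia stood at 2102, 5489 and 1752 CPM in mature neutrophils and at 449, 942 and 330 CPM in the precursors of the 3 wild-type libraries, so that each library held more in its mature cells and the groups did not overlap. Tnfaip3 stood at 185, 584 and 250 CPM in mature neutrophils and at 20.6, 92.9 and 21.6 CPM in precursors. Irak3 stood at 40.9, 52.2 and 59.9 CPM in mature neutrophils and at 48.6, 55.8 and 48.6 CPM in precursors, with overlapping values. Over all neutrophils it stood at 46.4 to 82.0 CPM, and the neutrophils outside these named subsets were not compared.

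In the wild-type libraries 8 of the 10 genes were higher in mature neutrophils, where 34.3% of genes were. The difference was 3.22 ± 0.23 (log2, SE; edgeR adjusted p = 3.36e-06) for Tnfaip3, 2.98 ± 0.18 for Nfkbiz, 2.77 ± 0.20 for Birc3, 2.53 ± 0.19 for Nfkbia and 2.26 ± 0.21 for Zc3h12a. The subunits differed less, by 1.49 ± 0.22 for Relb, 1.32 ± 0.16 for Rela and 0.65 ± 0.15 for Nfkb1, while Nfkb2 (0.43, edgeR adjusted p = 0.0593) and Irak3 (0.12 with an interval of -0.25 to 0.49) did not pass. The Nlrp3-/- libraries gave 9 of 10, against 32.7% of genes, with Tnfaip3 at 3.67, and only Irak3 at 0.10 did not pass. With totals alone the calls in the wild-type libraries did not change, while the median of all genes moved by -0.13 (log2). In the precursors 8 of the 10 genes lay below the free RNA of their own library in all 6 libraries, and Nfkbia did in 5, so these precursor levels are not read as expression. Irak3 lay above free RNA in every library. In mature neutrophils 1 of the 10 genes lay below free RNA in all 6 libraries and 2 in all wild-type libraries. The genes that respond to tissue dissociation, 12 genes such as Junb, summed to 9219 to 13010 CPM in mature neutrophils and to 1811 to 2748 CPM in precursors over the 6 libraries, and the part of this response in the differences was not tested. In Nlrp3-/- replicate 1 the precursors had a median of 1785 UMIs per cell, against 7869.5 to 10966 in the other libraries.

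Among macrophages, Ly6c2 Ccr2 monocytes, the recruited form, were compared with C1q Mrc1 macrophages. Nfkbia stood at 1720, 1996 and 2864 CPM in the monocytes and at 993.5, 829 and 1079 CPM in the C1q Mrc1 macrophages of the wild-type libraries, without overlap. Of the 10 genes, 8 were higher in monocytes, where 25.5% of genes were: Nfkbiz by 1.51 ± 0.25 (log2, SE; edgeR adjusted p = 2.77e-05), Nfkbia by 1.28 ± 0.14, Tnfaip3 by 1.20 ± 0.15, Zc3h12a by 1.20 ± 0.19, Irak3 by 1.07 ± 0.21, Birc3 by 0.89 ± 0.11, Nfkb1 by 0.73 ± 0.09 and Rela by 0.44 ± 0.13. With totals alone Rela no longer passed (0.32, edgeR adjusted p = 0.0511). Relb was lower by -0.52 ± 0.13, where 24.6% of genes were lower, and Nfkb2 differed by -0.14 with an interval of -0.38 to 0.11. In the Nlrp3-/- libraries the counts were again 8 higher, against 25.8% of genes, and 1 lower, Relb at -0.43, against 23.0%. The dissociation genes summed to 6709 to 11300 CPM in monocytes and to 5084 to 8585 CPM in C1q Mrc1 macrophages of the wild-type libraries, and their part was not tested.

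**Figure D3:**
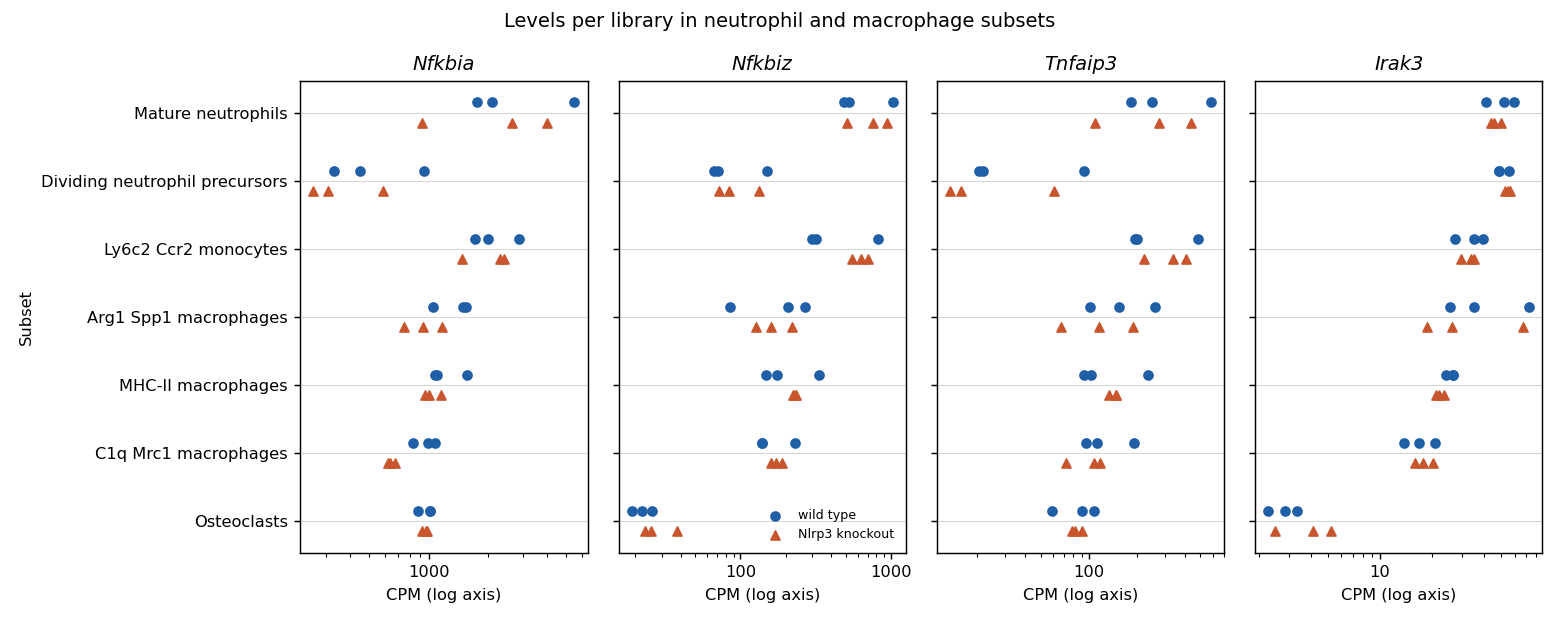
Levels of Nfkbia, Nfkbiz, Tnfaip3 and Irak3 in each library (CPM, log axis) in 2 neutrophil and 5 macrophage subsets, with wild-type libraries as circles and Nlrp3-/- libraries as triangles. Nfkbia in mature neutrophils of wild-type libraries (1752 to 5489 CPM) lies above that in dividing precursors (330 to 942 CPM), whereas Irak3 overlaps between these subsets and is lowest of the subsets drawn in osteoclasts, at 2.27 to 3.33 CPM in wild-type libraries.

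Osteoclasts, the multinucleate bone-resorbing cells that need NF-kappaB signalling downstream of RANK to form, were not tested as a pair. Their Nfkbia level was 879 to 1020 CPM in the wild-type libraries, overlapping with that of the C1q Mrc1 macrophages. Nfkbiz stood at 19.0 to 25.8 CPM and Irak3 at 2.27 to 3.33 CPM, both below free RNA in every library, as were Rela and Zc3h12a, so they are not read as expression. In C1q Mrc1 macrophages Nfkbiz stood at 138.7 to 229.5 CPM, and Irak3 at 13.7 to 20.95 CPM was also below free RNA in the wild-type libraries.

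The remaining genes of the pathway were counted between neutrophils and macrophages in the wild-type libraries, where 36.1% of all genes were called higher and 33.3% lower in neutrophils. Of 10 receptor genes 6 were higher and 2 lower in neutrophils, with Il1rap, the accessory chain of the interleukin-1 receptor, higher by 3.28 and Tnfrsf11a (RANK) and Cd40 lower by -5.87 and -4.82 on the log2 scale. Of 13 adaptor genes 6 were higher and 2 lower, with Tirap at 2.21, Irak2 at 1.84 and Myd88 at 1.22. Of 10 kinase genes 5 were higher and 1, Ikbkb, lower at -0.88. Of 16 target genes 9 were higher and 4 lower, with the chemokines Ccl3 and Ccl4 at 3.90 and 3.71 and Il6 at -3.47. Nfkbid (2.14) was the only one of 5 other subunit and IkappaB genes that passed, and 5 of 12 other inhibitors were higher and 4 lower. The shares called higher among adaptors, kinases and other inhibitors lie near that of all genes. With totals alone, where 15.0% of all genes were higher and 59.0% lower, these counts became 2 higher and 3 lower for receptors, 2 and 9 for adaptors, 1 and 8 for kinases, 7 and 6 for targets, 1 and 4 for other subunit and IkappaB genes, and 1 and 8 for other inhibitors. Tnfrsf11a and Cd40 were below 1 CPM in every wild-type neutrophil library.

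The second question of the design was whether loss of Nlrp3 changed these genes. In macrophages, Nfkbia stood at 1234, 1231 and 1619 CPM in the wild-type libraries and at 1137, 944.5 and 1034 CPM in the Nlrp3-/- libraries. Zc3h12a stood at 53.5, 50.9 and 44.1 CPM in wild-type and at 41.9, 29.8 and 33.1 CPM in Nlrp3-/- libraries. These were the only 2 of the 10 genes whose Nlrp3-/- libraries all lay below the wild-type libraries, as did 4.69% of the genes tested, and none lay wholly above, as did 21.3% of genes. Tnfaip3, at 115, 129 and 251 CPM in wild-type and 175, 116 and 125 CPM in Nlrp3-/- libraries, overlapped widely.

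None of the 10 genes passed the test in macrophages (edgeR adjusted p of at least 0.133), where 0.465% of 12894 genes did. The log2 fold change was -0.67 ± 0.18 (SE) for Zc3h12a, -0.55 ± 0.15 for Nfkbia and -0.45 ± 0.13 for Nfkb2, and these 3 of 10 had an unadjusted p under 0.05, as did 20.3% of genes. All 10 fold changes lay below 0 with a median of -0.17 against 0.01 over all genes, but with library totals alone, which moved the median of all genes by 0.17, those of Nfkb1, Rela, Relb, Nfkbiz and Birc3 lay above 0. The calls for Nfkbia and Zc3h12a depended on the test and on 1 library, and that for Zc3h12a also on the filter. By the DESeq2 Wald test both were lower (adjusted p = 0.00947 and 0.0168), as were 3.19% of genes. Without wild-type replicate 3, Zc3h12a (-0.79), Nfkb2 (-0.58) and Nfkbia (-0.46) passed in edgeR, as did 10.9% of genes in that direction. Zc3h12a also passed with all libraries but without the filter on low counts (-0.67, edgeR adjusted p = 0.0284). In macrophages 12 mesenchymal markers, none at 0 in all libraries, summed to 370 to 696 CPM in wild-type and to 704 to 1323 CPM in Nlrp3-/- libraries, and 12 neutrophil markers to 1740 to 3780 CPM and 1471 to 4156 CPM. Osteoclasts took 5.86% to 7.41% of the macrophage class in wild-type and 7.92% to 10.52% in Nlrp3-/- libraries, while the shares of the 5 other named subsets overlapped. Free RNA of Zc3h12a stood at 43.9, 42.4 and 30.4 CPM in wild-type and at 31.8, 21.3 and 22.2 CPM in Nlrp3-/- libraries. That of Nfkbia stood at 610, 859 and 792 CPM in wild-type and at 716, 365 and 519 CPM in Nlrp3-/- libraries. For Nfkb2 it was 42.1, 59.4 and 39.6 CPM in wild-type and 36.6, 28.8 and 45.7 CPM in Nlrp3-/- libraries. The part of markers, subset shares and free RNA in the fold changes was not tested.

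In neutrophils the libraries of a group differed more than the groups. Nfkbia stood at 918.5, 3032 and 1475 CPM in wild-type and at 2284, 348 and 715 CPM in Nlrp3-/- libraries, and Tnfaip3 at 71.7, 311 and 187.5 CPM in wild-type and 234, 31.4 and 67.0 CPM in Nlrp3-/- libraries. Wild-type replicate 2 and Nlrp3-/- replicate 1 were the high libraries of their groups for both genes. None of the 10 genes passed (edgeR adjusted p of at least 0.451), where 0.396% of 10871 genes did, none had an unadjusted p under 0.05, where 14.0% of genes did, and none had Nlrp3-/- libraries that all lay below the wild-type libraries, where 3.98% of genes did, or all lay above them, where 18.4% did. The fold change of Tnfaip3 was -0.96 with an interval of -2.50 to 0.59 and that of Nfkbia -0.88 with an interval of -2.31 to 0.56, so that the intervals held both signs. Without Nlrp3-/- replicate 1 they became -2.23 and -2.05 (edgeR adjusted p = 0.0905 and 0.0870), and without wild-type replicate 2 -0.36 and -0.25 (edgeR adjusted p = 0.946 and 0.960), so that neither passed with any library left out.

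The neutrophil libraries also differed in composition. Mature neutrophils made up 61.3%, 69.9% and 49.8% of neutrophils in the wild-type libraries and 24.6%, 34.1% and 34.2% in the Nlrp3-/- libraries, and dividing precursors 7.42% to 11.4% and 18.2% to 20.9%. Within mature neutrophils the fold change of Nfkbia was -0.28 with an interval of -1.45 to 0.89, and that of Tnfaip3 was -0.29 with an interval of -1.41 to 0.82. Within dividing precursors Nfkbia was at -0.90 with an interval of -1.75 to -0.05, Tnfaip3 at -1.02 with an interval of -2.45 to 0.40 and Nfkb2 at -0.87 with an interval of -1.30 to -0.44, and none passed (edgeR adjusted p of 0.439, 0.581 and 0.199). The dissociation genes were highest in wild-type replicate 2 (6748 CPM) and Nlrp3-/- replicate 1 (6691 CPM), the libraries with the most Nfkbia, and lay between 3651 and 5612 CPM in the other 4. The part of composition and of dissociation in the fold changes was not tested.

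**Figure D4:**
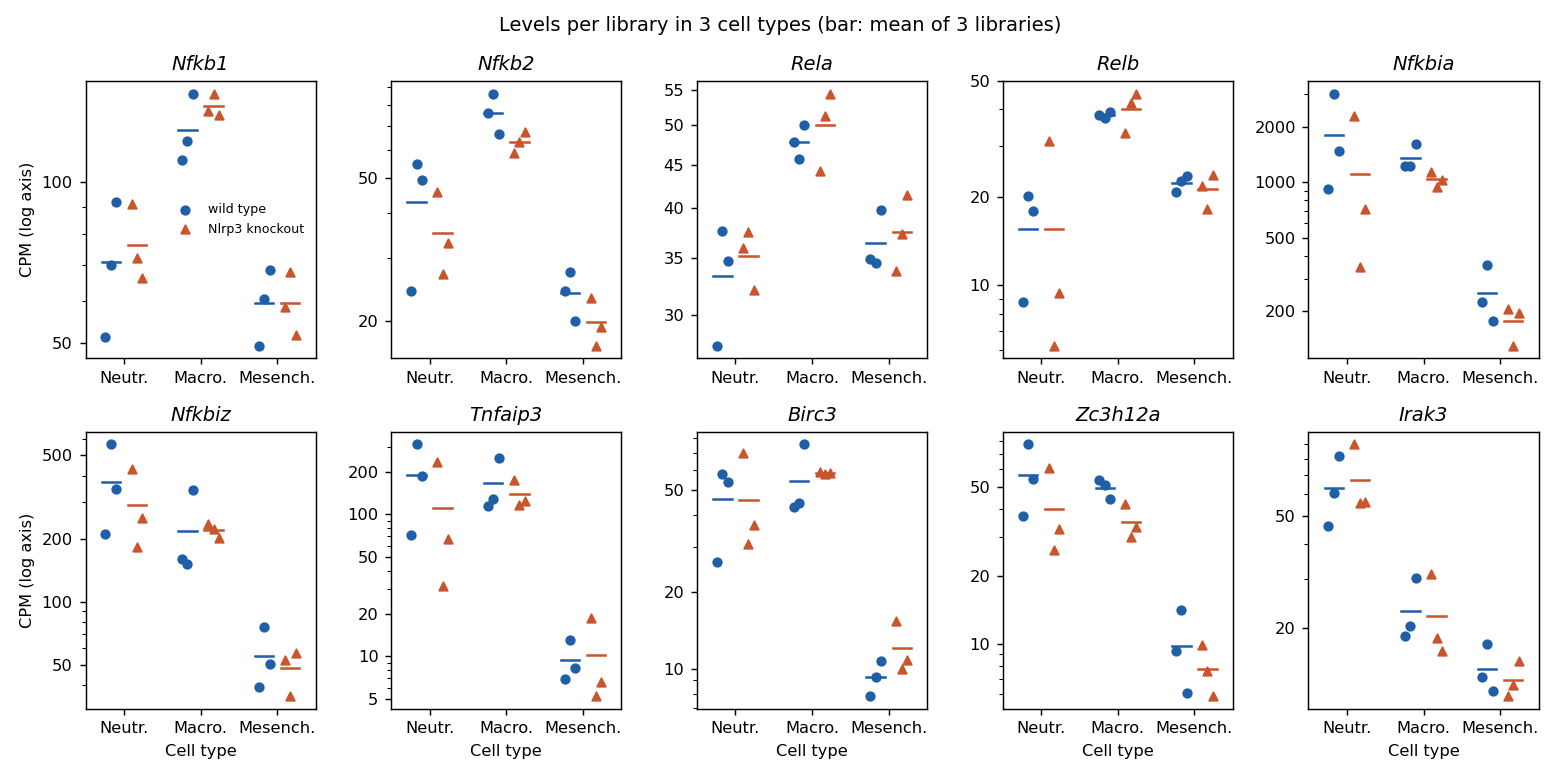
Level of each of the 10 genes in each library (CPM, log axis) in neutrophils, macrophages and mesenchymal cells, with wild-type libraries as circles, Nlrp3-/- libraries as triangles and a bar at the mean of 3 libraries. Nfkbia and Zc3h12a in macrophages are the cases in which the Nlrp3-/- libraries lie below all wild-type libraries, and the neutrophil libraries of 1 genotype range from 348 to 2284 CPM for Nfkbia.

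In mesenchymal cells none of the 10 genes passed (edgeR adjusted p of at least 0.416), where 0.115% of 14831 genes did. None had an unadjusted p under 0.05, against 12.4% of genes, and for none did the Nlrp3-/- libraries all lie below the wild-type libraries, against 5.41% of genes, or all above them, against 14.6%. Nfkbia stood at 224, 355 and 178 CPM in wild-type and at 204.5, 130 and 194 CPM in Nlrp3-/- libraries, a fold change of -0.59 with an interval of -1.16 to -0.03. The unadjusted edgeR p of that change was 0.0806. All 10 genes lay below the free RNA of their own library in all 6 mesenchymal libraries, so these levels are not read as expression. Free RNA of Nfkbia stood at 610, 859 and 792 CPM in wild-type and at 716, 365 and 519 CPM in Nlrp3-/- libraries. With each library left out the fold change of Nfkbia ran from -0.82, without wild-type replicate 3, to -0.26, without wild-type replicate 2, the library with the most Nfkbia. The intervals were narrower than in neutrophils for all 10 genes, such as -0.29 to 0.24 for Rela. The makeup of the class differed between the groups: Cxcl5 Saa3 fibroblasts took 5.51% to 32.2% of mesenchymal cells in wild-type and 0.0521% to 0.814% in Nlrp3-/- libraries, and dividing mesenchymal cells 12.4% to 17.3% and 4.48% to 9.35%. The part of free RNA and of this composition in the fold changes was not tested.

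**Figure D5:**
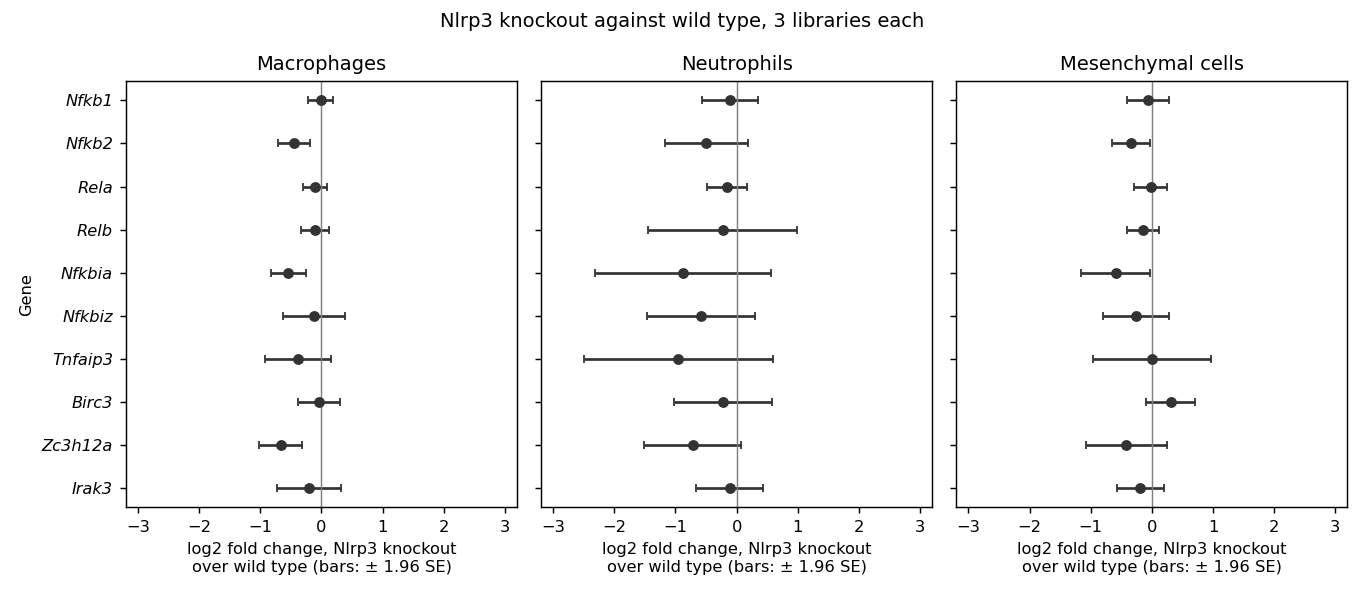
Log2 fold change of the 10 genes in Nlrp3-/- against wild-type libraries in macrophages, neutrophils and mesenchymal cells, with bars for the interval computed from the SE of 3 libraries per group. No gene passed the adjusted threshold, and the bars are widest in neutrophils, where that of Tnfaip3 runs from -2.50 to 0.59.

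The 17 other types and subsets with enough cells gave no call among the members either, where 678 of 148676 tests (0.456%) did. The member nearest to the threshold was Nfkbia in C1q Mrc1 macrophages (-0.72 ± 0.18, edgeR adjusted p = 0.0813), at 993.5, 829 and 1079 CPM in wild-type and 632.5, 621 and 670 CPM in Nlrp3-/- libraries. In 2 of these libraries, 1 of them wild type, it lay below the free RNA of the same library. In C1q Mrc1 macrophages every member but Nfkb1 (0.0087) had the same sign as Nfkbia, with Zc3h12a at -0.81 and Nfkb2 at -0.59. Zc3h12a lay below free RNA there in 4 of the 6 libraries, 2 of them wild type. Positive values with an unadjusted edgeR p under 0.05 included Nfkb1 in endothelial cells (0.34, edgeR adjusted p = 0.188). Birc3 in osteoclasts was another (0.44, edgeR adjusted p = 0.220). The same fits also held negative members with such a p. These were Nfkbia (-0.66, edgeR adjusted p = 0.127) and Nfkb2 (-0.34) in endothelial cells, and Nfkb2 (-0.38) in osteoclasts. In mast cells and basophils Zc3h12a (-0.89) and Nfkb1 (-0.63) were negative with an unadjusted edgeR p under 0.05. In T and NK cells 4 of 9 tested members had an unadjusted p under 0.05, against 11.3% of genes, and the lowest was that of Zc3h12a (-0.87 ± 0.25, edgeR adjusted p = 0.191).

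In Pi16 Dpp4 fibroblasts, a progenitor-like fibroblast population, 7 of the 10 genes, Nfkbia, Nfkb1, Nfkb2 and Nfkbiz included, lay below the free RNA of their own library in all 6 libraries, so these levels are not read as expression. Nfkbia stood at 482, 335.5 and 268 CPM in wild-type and at 117, 142 and 207 CPM in Nlrp3-/- libraries, a fold change of -1.39 ± 0.30 (SE) that missed the threshold (edgeR adjusted p = 0.0876). An unadjusted p under 0.05 was found for 7 of the 9 tested members, against 14.0% of genes, all with a negative sign: Nfkbia, Nfkb2 (-0.99), Nfkbiz (-0.98), Tnfaip3 (-0.87), Relb (-0.77), Nfkb1 (-0.69) and Rela (-0.61). Only 808 cells of the 6 libraries were in this subset, as few as 39 in 1 library. The dissociation genes summed to 2586 to 4676 CPM in wild-type and to 3062 to 6068 CPM in Nlrp3-/- libraries of this subset.

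Whether the effect of genotype differed between cell types was tested directly. None of the 10 genes passed for a difference in fold change between neutrophils and macrophages, where 0.0392% of 15323 genes did. None passed between mesenchymal cells and macrophages, where 0.0131% did, or between neutrophils and mesenchymal cells, where 0.202% did. A difference that did not pass is not evidence of equal fold changes. The largest such difference among the members was that of Tnfaip3 between neutrophils and mesenchymal cells, at -1.11 with an interval of -2.16 to -0.05 (edgeR unadjusted p = 0.0605, adjusted p = 0.385). None of the receptor, adaptor, kinase, target or other inhibitor genes, nor of the other subunit and IkappaB genes, passed for genotype in macrophages, neutrophils or mesenchymal cells.

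In the 17 other types and subsets, target genes gave 8 calls in 233 tests, all of them lower in Nlrp3-/- libraries, where 0.282% of all tests were called lower, and the other pathway lists gave none. These target genes are named although their values had been seen. The interferon-inducible chemokine Cxcl10 was lower in C1q Mrc1 macrophages (-2.33 ± 0.25, SE; edgeR adjusted p = 0.000525), MHC-II macrophages (-1.45), Pi16 Dpp4 fibroblasts (-2.77) and T and NK cells (-1.20). In C1q Mrc1 macrophages it stood at 142 to 161 CPM in wild-type libraries, above the 73.1 to 89.2 CPM of their free RNA, and at 25.5 to 58.9 CPM in Nlrp3-/- libraries, each below its own free RNA. In Pi16 Dpp4 fibroblasts 5 of the 6 libraries lay below free RNA.

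Of the 16 fits that tested Cxcl10 4 gave a positive value and none of these passed: 1.33 with an interval of 0.54 to 2.11 in conventional dendritic cells (edgeR unadjusted p = 0.00573, adjusted p = 0.105), 3.22 with an interval of 0.76 to 5.69 in mature neutrophils (adjusted p = 0.540), 3.18 with an interval of 1.16 to 5.21 in B cells (adjusted p = 0.465) and 0.67 in dividing precursors. The value in mature neutrophils rests on Nlrp3-/- replicate 1, at 926 CPM against 24.4 to 48.8 CPM in the other 5 libraries.

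The neutrophil-attracting chemokine Cxcl1 was lower in C1q Mrc1 macrophages (-2.18 ± 0.23) and MHC-II macrophages (-1.75), and it was positive without a call in 2 of the 15 fits that tested it. Its free RNA differed in the same direction, at 166 to 368 CPM in wild-type and 49.5 to 152 CPM in Nlrp3-/- libraries, and the part of this in the fold changes was not tested. Vcam1, an adhesion molecule, was lower in MHC-II macrophages (-1.11), the only call in 10 fits, of which 4 were positive. The call for the chemokine Cxcl2 in plasmacytoid dendritic cells (-3.64), its only one in 17 fits, of which 4 were positive, rests on 33 to 152 cells per library whose Cxcl2 level of 34.6 to 1107 CPM lay below the free RNA of the same library in all 6, so it is not read as a change in expression. Among the 12 dissociation genes 1 was called in the 17 fits, Hspa1a, higher in dividing monocytes and macrophages (0.97).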

How the data were processed

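Single-cell RNA-seq libraries (10x 3′ kit) of the enthesis at 7 dpi were analysed from the counts that the authors deposited, raw UMI counts per gene and barcode before cell calling. The file headers name Cell Ranger 4, the submitters' processing notes Cell Ranger 2.1.1 and mm10. Barcodes with at least 500 UMIs, 200 genes, at most 10% mitochondrial UMIs and a profile distinct from free RNA (false discovery rate 0.01) were kept, and the 13294 with the highest Scrublet scores were removed as doublets (0.8% per 1000 cells). Cells were clustered with scanpy 1.11.5 (2000 variable genes, 30 components, Leiden resolution 1.0). Clusters were named from fixed markers, with thresholds set after seeing the clusters.

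Sums of UMIs over the cells of a type in a library, where every library held 20 or more such cells, entered the edgeR 4.0.16 quasi-likelihood test in R 4.3.3 (TMM, filterByExpr, Benjamini-Hochberg over all genes tested, threshold 0.05), with DESeq2 1.42.0 as an alternative. Scaling by library totals alone was an alternative added after the data had been seen. Tests were checked on simulated counts. Intervals are estimates ± 1.96 SE, narrower than exact 95% intervals because few degrees of freedom remain, so that an interval without 0 is not a call. The comparison of mature with granule-rich immature neutrophils was not run, because no cluster met the latter's markers. All 10 genes are named throughout, and of the other lists up to 3 genes with the largest change between neutrophils and macrophages, besides genes with the pattern most like a member's, which for Irak3 are not reported here. The members and lists were chosen with earlier results of these data known.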

Additional observations from a re-analysis of the deposited data

How the results depend on the processing

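Of the 10 members, none passed for genotype in neutrophils or mesenchymal cells under any alternative. In macrophages the count was 1 without the filter on low counts (Zc3h12a), 2 by DESeq2, 0 to 3 when each library was left out, the 3 being without wild-type replicate 3, and 0 otherwise. Genes past the threshold for genotype in macrophages, neutrophils and mesenchymal cells numbered 60, 43 and 17, and 443, 197 and 26 without the filter, 620, 219 and 291 by DESeq2, and 28 to 2653, 12 to 135 and 7 to 507 with each library left out. The highest came without wild-type replicate 3 in macrophages and mesenchymal cells and without Nlrp3-/- replicate 1 in neutrophils. Replicate numbers name libraries and do not pair them: correlations of same-numbered deviations ran from -0.58 to 0.05. With the replicate block these counts were 35, 12 and 4, and Tnfaip3 in mesenchymal cells was -0.16. Between cell types, fits without the library block changed only the call of Rela for macrophages against mesenchymal cells. It no longer passed there (0.40, edgeR adjusted p = 0.0574).

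Between neutrophils and macrophages 4 to 7 members were higher and 0 to 1 lower with each library left out, where 7900 to 8592 of all genes passed in either direction. Relb was the 1 member lower without the filter, with at least 1000 UMIs per cell, with doublets kept, and without wild-type replicate 2 or 3. Rela, Tnfaip3 and Birc3 no longer passed without wild-type replicate 2, nor did Rela without wild-type replicate 3 (0.34) or without the filter (0.21). With library totals alone 2 were higher and 4 lower (Nfkb1 -0.84, Nfkb2 -0.84, Rela -0.53), with Birc3 at -0.25, and 5 were higher for endothelial against mesenchymal cells, while Rela did not pass for monocytes against C1q Mrc1 macrophages (0.32). Neutrophils against mesenchymal cells then had 1 lower (Relb -0.56) and Rela at -0.14. For either type against mesenchymal cells 9 to 10 members were higher and 0 lower with each library left out. All genes that then passed in either direction numbered 9972 to 10614 for neutrophils and 7705 to 8936 for macrophages. With doublets kept, Rela and Irak3 did not pass for macrophages against mesenchymal cells. Without the filter Nfkb1 was -0.10 and Nfkb2 -0.11 in neutrophils against macrophages, and with each library left out they ran from -0.062 to 0.20 and from -0.23 to 0.39.

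The other changes of sign were within the error. With library totals alone, genotype values were 0.15 (Nfkb1), 0.066 (Rela), 0.072 (Relb), 0.017 (Nfkbiz) and 0.11 (Birc3) in macrophages, 0.10 (Nfkb1), 0.082 (Rela) and 0.093 (Irak3) in neutrophils and 0.044 (Rela) in mesenchymal cells. Dendritic cells against macrophages gave -0.048 (Rela), -0.090 (Tnfaip3) and -0.12 (Zc3h12a), and mature against dividing neutrophils -0.014 (Irak3). With doublets kept, macrophages gave 0.033 (Nfkb1) and 0.087 (Birc3). With clusters of 1 library kept, mesenchymal Nfkb1 was 0.014. Mesenchymal Tnfaip3, at 0.00, was -0.024 with RLE size factors, -0.0011 without the filter, -0.017 by DESeq2, -0.0028 with at least 1000 UMIs, -0.092 with doublets kept and -0.027 with NF-kappaB genes kept for clustering. With each library left out, ranges crossing 0 were -0.066 to 0.058 (Nfkb1), -0.31 to 0.29 (Nfkbiz) and -0.15 to 0.20 (Birc3) in macrophages, -0.33 to 0.028 (Nfkb1), -1.28 to 0.21 (Relb), -0.73 to 0.050 (Birc3) and -0.45 to 0.060 (Irak3) in neutrophils, and -0.20 to 0.029 (Nfkb1), -0.095 to 0.072 (Rela), -0.46 to 0.035 (Nfkbiz) and -0.72 to 0.31 (Tnfaip3) in mesenchymal cells. The cause of these changes was not tested. Depth limits the rarest counts: Relb in neutrophils rests on 76 to 219 UMIs per library and Tnfaip3 in mesenchymal cells on 142 to 499. For single genes, 649 of 700 values under the other settings and 235 of 270 with a library left out kept both direction and call.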
